A study of Mus musculus with 9 samples.

Results

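Bergapten-treated skin challenged with imiquimod (IMQ) was set against vaseline skin across all genes, to find which transcripts still differed from unchallenged skin after treatment and which were at the vaseline level. The comparison used 6 of the 9 RNA-seq libraries of the series, 3 a side, and the 3 IMQ libraries are given beside them as a description. All groups were wild-type (WT), specific-pathogen-free (SPF) Balb/c mice aged 6 to 8 weeks whose back skin was shaved. The first group received IMQ for 7 days and a bergapten gel for 2 days (bergapten skin), the second IMQ for 7 days (IMQ skin), and the third vaseline for 7 days (vaseline skin). The labels name no group with an empty gel and do not say whether the gel days fell within or after the IMQ days. IMQ cream, gel base and bergapten therefore cannot be told apart in this comparison. No label states that a group's 3 libraries are from different mice. The p-values thus reflect variation among these samples only, and it may be technical.

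IMQ activates Toll-like receptor 7 and, rubbed on mouse skin, brings about a psoriasis-like inflammation. Dendritic cells and T cells release interleukin (IL)-23 and IL-17, keratinocytes answer with alarmins, IL-36 and neutrophil attractants, and the epidermis thickens. Bergapten is a plant furanocoumarin, 5-methoxypsoralen. Whole skin holds epidermis, hair follicles, sebaceous glands, dermis, fat and the thin muscle below it. In such bulk samples fewer cells of a type and less RNA per cell cannot be told apart.

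Counted reads per library ran from 15855439 to 19862905 in bergapten skin, from 18890579 to 19456060 in IMQ skin and from 16080479 to 18757911 in vaseline skin. Markers of keratinocytes (Krt5, Krt14, Krt10, Krt1), fibroblasts (Col1a1, Dcn), fat (Adipoq), muscle (Acta1), endothelium (Cdh5) and mast cells (Cpa3) were present in every library, while the lung marker Sftpc stayed at or below 0.811 CPM (read counts scaled to a common depth) and the pancreas marker Cpa1 at or below 0.119 CPM. Bergapten replicate 2 stood apart in Rn18s, the 18S ribosomal RNA, which took 1.79% of its counts and 0.179% to 0.270% of those of the other 8 libraries. Rn18s itself was not called (1848, 17709 and 2612 CPM in bergapten skin against 2036, 2329 and 1930 CPM in vaseline skin, edgeR adjusted p = 0.23). The share of counts in the 20 most counted genes was 10.4% to 11.05% in bergapten skin, 8.44% to 9.42% in IMQ skin and 16.5% to 17.1% in vaseline skin.

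Of 17454 genes with enough counts to test, 8914 (51.1%) differed between bergapten and vaseline skin in the edgeR quasi-likelihood test at an adjusted p under 0.05. Of these, 4486 genes (25.7% of those tested) were higher in bergapten skin and 4428 (25.4%) were lower. The levels of the groups did not overlap for 60% of the genes tested. A second test asked whether a gene lay within 1.5-fold of vaseline skin in either direction, and 5954 genes (34.1%) passed it. The tests overlap, since a small difference can be both measurable and within the margin: 1593 genes (9.13%) passed both, 7321 (41.9%) only the first, 4361 (25%) only the second, and 4179 (23.9%) neither. Most called differences were modest. Among called genes, 1425 were at least 2-fold higher and 1900 at least 2-fold lower, 183 and 155 were at least 10-fold higher and lower, and 57 and 23 at least 100-fold. The median log2 fold change over all genes tested was 0.01. Scaling by library size alone moved that median to 0.11 and left 60.2% of calls higher, against 50.3% as reported, and every log2 fold change given here is on the reported scale.

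How firmly a gene could be placed depended on its level. Of the 1100 genes under 1 CPM in the higher group, 87% passed neither test, as did 54.7% of the 4818 genes at 1 to 10 CPM. Among the 9035 genes at 10 to 100 CPM the share was 5.63%, and 48.8% lay within 1.5-fold. At 100 CPM and above (2501 genes) 3.04% passed neither test and 48.8% lay within the margin. For low genes a missing call says nothing about their being at the vaseline level.

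**Figure D1:**
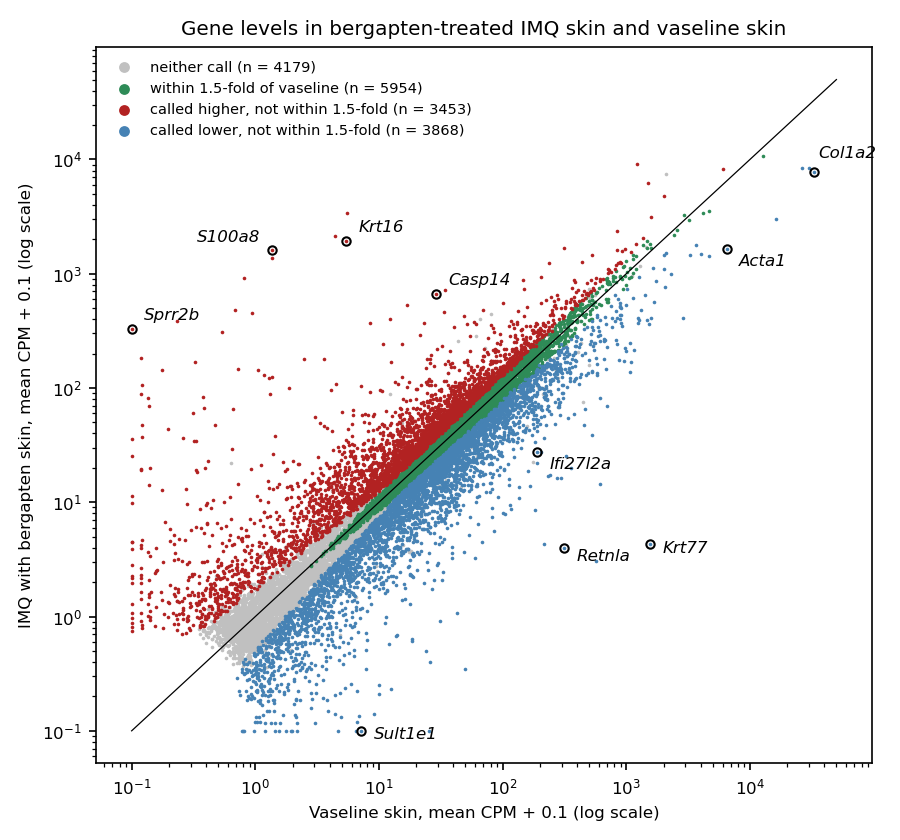
Mean CPM + 0.1 of each of 17454 genes in bergapten skin (vertical) and vaseline skin (horizontal), both on log scales, coloured by test outcome. Green points, the 5954 genes within 1.5-fold, lie along the line of equality. S100a8, Krt16 and Sprr2b sit far above the line, and Krt77, Retnla and Sult1e1 far below it.

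The counts of every list below stand against the shares over all genes, 25.7% higher, 25.4% lower and 34.1% within 1.5-fold. Among 52 gene lists, the largest median excess over vaseline skin was in the keratins and envelope proteins of stressed epidermis. Of the 23 measured members of this list, 22 were higher in bergapten skin, none was lower and none lay within 1.5-fold, against 25.7% of all genes called higher. Their median log2 fold change was 8.50, or 8.21 with the genes that had no vaseline count set at their lower bound. Krt16 is made where epidermis overgrows. On GRCm39, the build of every gene position here, the gene (ENSMUSG00000053797, chromosome 11, 100136917 to 100139728, minus strand) had 1507, 2147 and 2199 CPM with bergapten, 2446, 1081 and 3080.1 CPM with IMQ and 7.45, 3.98 and 4.57 CPM with vaseline. The bergapten and vaseline libraries did not overlap (log2 fold change 8.50 ± 0.29 SE, edgeR adjusted p = 1.71e-05). Krt6a, a partner keratin of wounded and psoriatic epidermis, had 305, 604 and 679 CPM in the bergapten libraries, 875, 435 and 1049.5 CPM in the IMQ libraries and 21.96, 14.2 and 14.4 CPM in the vaseline libraries. Krt6a rose by 4.97 ± 0.39 on the log2 scale (SE, edgeR adjusted p = 0.00086). The bergapten and IMQ libraries overlapped for both keratins. No test of bergapten against IMQ skin was made here for these or any other genes.

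Small proline-rich (Sprr) and late cornified envelope (Lce) genes, whose products are cross-linked into the cell envelope of keratinocytes, were nearly silent in vaseline skin. Sprr2b had no count in any single vaseline library and 189, 389.7 and 409.8 CPM in bergapten skin, at least 5673-fold higher against a floor of 3 counts over the vaseline group (edgeR adjusted p = 0.00776). That call was lost without bergapten replicate 2 or 3, with an adjusted p of up to 0.076. Lce3f, also without a vaseline count, had 15.8, 31.2 and 29.4 CPM in bergapten skin and 23.7, 20.9 and 33.4 CPM in IMQ skin, at least 437-fold above that floor. Sprr2k had 4.06, 11.4 and 13.9 CPM in bergapten skin and no vaseline count, at least 169.7-fold. Sprr2e had 81.3, 178 and 174 CPM in bergapten skin, 182, 88.2 and 266 CPM in IMQ skin and 0.11, 0 and 0.119 CPM in vaseline skin. Lce3c, with a few vaseline counts, had 35.5, 54.7 and 52.03 CPM with bergapten, 50.98, 38.1 and 53.5 CPM with IMQ and 0.438, 0.391 and 0.297 CPM with vaseline. Lce3c rose by 6.95 ± 0.39 on the log2 scale (SE, edgeR adjusted p = 1.11e-08). Reads of the near-identical Sprr2 and Lce3 genes can be split between family members, so their separate levels are uncertain. In all, 18 genes with counts in every bergapten library had none in vaseline skin, and 15 had the reverse.

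Promoters of this list are shown because AP-1, the dimer of Fos and Jun proteins, is known to drive several of these genes. Sequences are the 150 bases before the start of the gene (RefSeq, GRCm38.p6, 5′ to 3′ on the gene's strand), with matches to TGANTCA, searched on both strands, in capitals. The genes shown were picked as the list members with the smallest p that held a match in these bases. Sprr1b lies at chr3:92438780-92438929, minus strand, Ivl at chr3:92573736-92573885, minus strand and Sprr1a at chr3:92485882-92486031, minus strand.

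Sprr1b: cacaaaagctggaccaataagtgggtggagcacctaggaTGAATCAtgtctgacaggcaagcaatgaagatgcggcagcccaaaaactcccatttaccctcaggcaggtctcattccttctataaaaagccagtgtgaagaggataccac

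Ivl: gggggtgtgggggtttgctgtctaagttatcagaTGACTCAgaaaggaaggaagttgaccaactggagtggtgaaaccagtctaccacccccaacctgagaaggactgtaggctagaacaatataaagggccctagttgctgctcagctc

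Sprr1a: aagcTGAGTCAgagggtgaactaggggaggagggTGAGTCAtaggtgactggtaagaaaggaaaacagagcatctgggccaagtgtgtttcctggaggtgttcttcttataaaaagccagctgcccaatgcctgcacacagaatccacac

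In the 250 bases before the start, 10 of the 18 stress list genes with a promoter sequence held TGANTCA (55.6%), against 6.35% of the 12255 tested genes with one and 0 of 25 in the cell cycle list. Among genes called at least 4-fold higher the share was 10.5%, among those at least 4-fold lower 8.07%, and among those within 1.5-fold 4.92%. Most of the 10 stress list genes with a match were similar Sprr2 genes, while no Lce3 gene with a promoter sequence held one. Family copies were thus counted as separate genes. The 3 genes shown differed in level. Sprr1b had 247, 346 and 338 CPM in the bergapten libraries, 393, 158 and 385 CPM in the IMQ libraries and 0.11, 0.718 and 0.474 CPM in the vaseline libraries. Sprr1b rose by 9.51 ± 0.52 on the log2 scale (SE, edgeR adjusted p = 2.64e-06). Ivl, which encodes involucrin, had 108, 84.98 and 62.6 CPM in bergapten skin, 126, 272 and 107 CPM in IMQ skin and 37.2, 40.2 and 35.1 CPM in vaseline skin. Ivl rose by 1.18 ± 0.19 on the log2 scale (SE, edgeR adjusted p = 0.00222). Sprr1a, whose promoter held 2 matches, was the only member of the list called neither way: it had 131, 227 and 204 CPM with bergapten, 261, 919 and 336 CPM with IMQ and 208, 205 and 179 CPM with vaseline, with overlapping bergapten and vaseline libraries. Its log2 fold change was -0.08 with an SE of 0.20. A match is a description of the letters and not a bound site.

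Antimicrobial proteins and S100 alarmins were the next group, with all 12 measured members higher and a median log2 fold change of 4.37. S100a8, a calcium-binding alarmin of neutrophils and stressed keratinocytes (ENSMUSG00000056054, chromosome 3, 90576285 to 90577342, plus strand), had 854, 1896 and 2087 CPM in the bergapten libraries, 2679.8, 1344 and 3136 CPM in the IMQ libraries and 1.15, 0.848 and 1.78 CPM in the vaseline libraries. S100a8 rose by 10.31 ± 0.63 on the log2 scale (SE, edgeR adjusted p = 0.00024). Its partner S100a9 had 1808, 3882 and 4446 CPM in bergapten skin, 5150.3, 2411 and 6352 CPM in IMQ skin and 4.87, 4.76 and 6.7 CPM in vaseline skin. S100a9 rose by 9.27 ± 0.45 on the log2 scale (SE, edgeR adjusted p = 0.000227). Bergapten replicate 1 was the lowest of its group for both, and still more than 100 times every vaseline library. Chil1, a chitinase-like secreted protein, had 320.1, 465 and 411 CPM with bergapten, 326, 423 and 391 CPM with IMQ and 13.7, 9.2 and 13.6 CPM with vaseline. Chil1 rose by 5.03 ± 0.19 on the log2 scale (SE, edgeR adjusted p = 1.84e-06). Slpi, a secreted inhibitor of leukocyte proteases, had 16.97, 27.04 and 35.7 CPM in the bergapten libraries, 33.6, 48.8 and 42.1 CPM in the IMQ libraries and 1.31, 1.37 and 1.19 CPM in the vaseline libraries. Slpi rose by 4.36 ± 0.34 on the log2 scale (SE, edgeR adjusted p = 6.17e-06). Defb14, a beta-defensin, had 8.07, 11.9 and 9.63 CPM in bergapten skin, 22.5, 13.04 and 14.1 CPM in IMQ skin and 0.657, 1.76 and 1.07 CPM in vaseline skin. Defb14 rose by 3.11 ± 0.31 on the log2 scale (SE, edgeR adjusted p = 5.01e-06). Defb3, another beta-defensin, had 1 count in all of vaseline skin and 90.9, 213 and 243 CPM in bergapten skin. Summed over the list, the level was 3200.2, 6700.3 and 7437 CPM in bergapten skin, 8959, 4623 and 10696 CPM in IMQ skin and 46.4, 41.6 and 47.7 CPM in vaseline skin.

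Inhibitors of serine and cysteine proteases made by inflamed epidermis were also raised, 10 of 13 higher and 2 lower (1 with all 9 libraries in the fit). Serpinb3b, a squamous cell serpin, had 426, 519 and 445 CPM with bergapten, 467, 298 and 504 CPM with IMQ and 29.6, 33.1 and 36.9 CPM with vaseline. Serpinb3b rose by 3.80 ± 0.10 on the log2 scale (SE, edgeR adjusted p = 2.06e-09). Serpinb12, a related serpin, had 139, 124 and 108 CPM in the bergapten libraries, 106, 77.1 and 76.6 CPM in the IMQ libraries and 15.1, 16.2 and 14.5 CPM in the vaseline libraries. Serpinb12 rose by 3.02 ± 0.099 on the log2 scale (SE, edgeR adjusted p = 2.55e-09). Serpinb3d had no vaseline count and 29.2, 39.4 and 37.9 CPM in bergapten skin, at least 603-fold above the floor. The Serpinb3 and Stfa genes are near-identical families with uncertain counts. Genes outside these families were among the largest rises too: Uox, urate oxidase, had 44.2, 112 and 107 CPM in bergapten skin, 108, 62.1 and 229 CPM in IMQ skin and 1 count in all of vaseline skin.

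Neutrophil markers stayed high, with 15 of 20 called higher, 1 lower and a median log2 fold change of 3.29. This list shares S100a8 and S100a9 with the alarmins. Fpr2, a formyl peptide receptor, had 14.8, 23.4 and 19.7 CPM in bergapten skin, 35.3, 8.44 and 25.1 CPM in IMQ skin and 1.53, 1.3 and 2.31 CPM in vaseline skin. Fpr2 rose by 3.48 ± 0.25 on the log2 scale (SE, edgeR adjusted p = 4.28e-07). Mmp8, the neutrophil collagenase, had 9.38, 9.79 and 12.03 CPM with bergapten, 85.9, 15.7 and 22.7 CPM with IMQ and 0.383, 0.196 and 0.474 CPM with vaseline. Mmp8 rose by 4.84 ± 0.34 on the log2 scale (SE, edgeR adjusted p = 7.83e-08). Of the attractants and their receptor, 4 of 7 were higher and none lower, and all 7 were higher without vaseline replicate 3. Cxcr2, the receptor that guides neutrophils, had 29.04, 41.9 and 43.01 CPM in the bergapten libraries, 59.9, 25.6 and 52.3 CPM in the IMQ libraries and 1.04, 0.718 and 2.25 CPM in the vaseline libraries. Cxcr2 rose by 4.81 ± 0.38 on the log2 scale (SE, edgeR adjusted p = 1.67e-05). Ccl3, a chemokine of activated leukocytes, had 3.76, 4.03 and 1.32 CPM in bergapten skin, 5.84, 5.79 and 5.65 CPM in IMQ skin and 0.548, 0.652 and 1.6 CPM in vaseline skin. Ccl3 rose by 1.69 ± 0.52 on the log2 scale (SE, edgeR adjusted p = 0.0203). Bergapten replicate 3 lay within the vaseline range, and this was a call lost without bergapten replicate 1 or 2 or vaseline replicate 1 or 2 (adjusted p of up to 0.083) and with the replicate block (adjusted p = 0.074). Retnlg, a granule-protein gene of mature neutrophils, was among the 4 neutrophil genes called neither way: it had 2.93, 2.04 and 3.06 CPM with bergapten, 72.98, 13.96 and 13.7 CPM with IMQ and 1.42, 3.39 and 2.25 CPM with vaseline. Il1r2, a decoy receptor for IL-1 found on neutrophils, was the 1 member below vaseline skin: it had 30.6, 41.4 and 36.2 CPM in the bergapten libraries, 103, 91.8 and 65.8 CPM in the IMQ libraries and 101, 125 and 106 CPM in the vaseline libraries. Il1r2 fell by 1.62 ± 0.12 on the log2 scale (SE, edgeR adjusted p = 1.22e-06).

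The cytokines that define the IMQ model remained measurable. In the IL-23 and IL-17 list of 16, 11 were higher and 2 lower, with a median log2 fold change of 1.16. Without bergapten replicate 3 the 2 became 1, and with all 9 libraries in the fit 0. Il17a, the cytokine of gamma-delta and Th17 cells, had 1.19, 1.14 and 0.611 CPM in bergapten skin, 7.14, 0.92 and 18.1 CPM in IMQ skin and 0.219, 0.0652 and 0.0593 CPM in vaseline skin. Il17a rose by 2.97 ± 0.71 on the log2 scale (SE, edgeR adjusted p = 0.00126). That call was lost with all 9 libraries in the fit (adjusted p = 0.121). Il17f, its close relative, had 1.37, 2.78 and 2.8 CPM with bergapten, 7.77, 1.84 and 19.2 CPM with IMQ and 0.164, 0 and 0 CPM with vaseline (edgeR adjusted p = 7.03e-05), the vaseline level resting on 3 counts in all. Il23a, the subunit particular to IL-23, had 0.896, 1.64 and 1.02 CPM in the bergapten libraries, 3.34, 2.11 and 2.9 CPM in the IMQ libraries and 0.329, 0 and 0.415 CPM in the vaseline libraries. Il23a rose by 2.19 ± 0.66 on the log2 scale (SE, edgeR adjusted p = 0.0102). The Il23a call was lost without bergapten replicate 2, at an adjusted p of 0.051. Il23r, the receptor subunit on those T cells, had 3.29, 3.88 and 3.72 CPM in bergapten skin, 2.76, 2.6 and 5.3 CPM in IMQ skin and 0.548, 0.261 and 0.534 CPM in vaseline skin. Il23r rose by 2.98 ± 0.35 on the log2 scale (SE, edgeR adjusted p = 1.2e-05). On the epithelial side Il17rc, a subunit of the IL-17 receptor, had 118, 117 and 123 CPM with bergapten, 111, 107 and 111 CPM with IMQ and 78.9, 77.4 and 79.8 CPM with vaseline (log2 fold change 0.60 ± 0.066 SE, edgeR adjusted p = 1.27e-05), and Il22ra1, the epithelial IL-22 receptor subunit, had 34.2, 41.3 and 38.2 CPM in the bergapten libraries, 32.7, 35.2 and 32.04 CPM in the IMQ libraries and 20.6, 15.2 and 17.5 CPM in the vaseline libraries. Il22ra1 rose by 1.09 ± 0.12 on the log2 scale (SE, edgeR adjusted p = 1.48e-05).

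All 4 genes of the IL-36 group that were measured stayed above vaseline skin with no overlap, and they are the keratinocyte cytokines of the IL-1 family. Il1f6 encodes IL-36 alpha and had 131, 162 and 141 CPM in bergapten skin, 153, 129.8 and 142 CPM in IMQ skin and 1.2, 1.24 and 0.415 CPM in vaseline skin. Il1f6 rose by 7.24 ± 0.29 on the log2 scale (SE, edgeR adjusted p = 5.48e-08). Il1f8 encodes IL-36 beta and had 102, 119.7 and 89.6 CPM with bergapten, 87.2, 121 and 80.3 CPM with IMQ and 7.996, 6.98 and 6.29 CPM with vaseline. Il1f8 rose by 3.87 ± 0.13 on the log2 scale (SE, edgeR adjusted p = 3.56e-09). Il1f9 encodes IL-36 gamma and had 146, 189.7 and 166 CPM in the bergapten libraries, 185, 155 and 201 CPM in the IMQ libraries and 13.7, 11.4 and 11.98 CPM in the vaseline libraries. Il1f9 rose by 3.75 ± 0.11 on the log2 scale (SE, edgeR adjusted p = 2.55e-09). Il1f5 encodes the IL-36 receptor antagonist and had 392, 368 and 319 CPM in bergapten skin, 264, 428 and 256 CPM in IMQ skin and 53.2, 50.4 and 49.2 CPM in vaseline skin. Il1f5 rose by 2.82 ± 0.087 on the log2 scale (SE, edgeR adjusted p = 2.55e-09). The receptor itself was at the vaseline level: Il1rl2 had 142, 148 and 143 CPM with bergapten, 135, 136 and 142 CPM with IMQ and 135, 142 and 131 CPM with vaseline. Il1rl2 differed by 0.09 ± 0.069 on the log2 scale (SE, edgeR adjusted p within 1.5-fold = 0.000342). So was Il1r1, the IL-1 receptor (log2 fold change -0.12 ± 0.088 SE, edgeR adjusted p within 1.5-fold = 0.000961). Of the 16 genes in the IL-1 and IL-36 list, 8 were higher, 2 lower and 4 within 1.5-fold (2 without bergapten replicate 3). Downstream of many cytokines, Stat3 had 296, 348 and 329.6 CPM in the bergapten libraries, 362, 373 and 381 CPM in the IMQ libraries and 189, 198 and 191 CPM in the vaseline libraries (log2 fold change 0.75 ± 0.078 SE, edgeR adjusted p = 7.91e-06), while Tyk2, a Janus kinase used by IL-23 and type I interferon, was within the margin (log2 fold change 0.14 ± 0.071 SE, edgeR adjusted p within 1.5-fold = 0.000446). Of the 19 Janus kinase, STAT and SOCS genes, 11 lay within 1.5-fold, 5 were called higher and 5 lower, and a gene could be both called and within the margin. Over all genes the shares were 34.1%, 25.7% and 25.4%, so the counts higher and lower were near those of all genes. The 5 higher became 2 without bergapten replicate 2 or vaseline replicate 1, and the 5 lower became 3 without vaseline replicate 1 or 3, with library size alone and with all 9 libraries. Stat2, a carrier of the type I interferon signal, had 45.5, 39.1 and 45.5 CPM in bergapten skin, 52.1, 31.9 and 90.3 CPM in IMQ skin and 83.7, 72.7 and 66.2 CPM in vaseline skin. Stat2 fell by 0.78 ± 0.099 on the log2 scale (SE, edgeR adjusted p = 4.28e-05). With all 9 libraries in the fit its call was lost (adjusted p = 0.088). Without bergapten replicate 2 or vaseline replicate 1 the 5 higher became 2, and without vaseline replicate 1 or 3 the 5 lower became 3.

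T cell markers were raised in 17 of 22 cases and lowered in none, with a median log2 fold change of 1.01. Icos, a costimulatory receptor of activated T cells, had 18.9, 26.3 and 29.4 CPM with bergapten, 16.2, 22.1 and 47.8 CPM with IMQ and 4.44, 5.48 and 5.81 CPM with vaseline. Icos rose by 2.25 ± 0.18 on the log2 scale (SE, edgeR adjusted p = 1.36e-06). Trdc, the constant region of the delta chain, had 11.1, 12.2 and 10.7 CPM in the bergapten libraries, 8.91, 9.63 and 19.2 CPM in the IMQ libraries and 1.97, 2.74 and 3.62 CPM in the vaseline libraries. Trdc rose by 2.03 ± 0.21 on the log2 scale (SE, edgeR adjusted p = 8.75e-06). Cd4, the helper T cell coreceptor, had 22.05, 17.3 and 18.7 CPM in bergapten skin, 5.004, 6.17 and 7.44 CPM in IMQ skin and 7.39, 5.42 and 4.09 CPM in vaseline skin (log2 fold change 1.77 ± 0.20 SE, edgeR adjusted p = 1.7e-05), with every bergapten library above every IMQ library. Of 13 B and plasma cell genes 6 had enough counts to test, and 5 of these were higher, Xbp1 being the exception. A gene nearly silent in vaseline skin could pass the filter through bergapten skin alone, so this is no share of the whole list. Summed over all 13, the level was 373, 395 and 352 CPM in bergapten skin. It was 340, 392 and 332 CPM in IMQ skin and 293, 330 and 325 CPM in vaseline skin. Cd79b, part of the B cell receptor, had 11.7, 15.3 and 13.5 CPM with bergapten, 8.34, 8.11 and 5.4 CPM with IMQ and 1.26, 1.96 and 1.01 CPM with vaseline. Cd79b rose by 3.27 ± 0.24 on the log2 scale (SE, edgeR adjusted p = 3.91e-07). Ighm, the IgM heavy chain, had 129, 130.2 and 112 CPM in the bergapten libraries, 51.7, 46.4 and 59.7 CPM in the IMQ libraries and 59.5, 76.9 and 61.7 CPM in the vaseline libraries (log2 fold change 0.91 ± 0.10 SE, edgeR adjusted p = 2.61e-05), and immunoglobulin counts can be split among similar genes.

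Macrophage genes went both ways, 12 of 24 higher and 7 lower, against 25.7% and 25.4% of all genes. The count lower was thus near the share over all genes. Adgre1, the F4/80 antigen (ENSMUSG00000004730, chromosome 17, 57665691 to 57790527, plus strand), had 446, 567 and 435 CPM in bergapten skin, 337, 140.1 and 142 CPM in IMQ skin and 68.1, 78.95 and 61.6 CPM in vaseline skin. Adgre1 rose by 2.80 ± 0.12 on the log2 scale (SE, edgeR adjusted p = 7.33e-08). Fcgr4, an activating IgG receptor, had 46.4, 69.8 and 67.9 CPM with bergapten, 139.5, 82.8 and 88.1 CPM with IMQ and 5.64, 5.15 and 4.09 CPM with vaseline. Fcgr4 rose by 3.63 ± 0.19 on the log2 scale (SE, edgeR adjusted p = 3.91e-07). Retnla, a marker of alternatively activated macrophages, had 4.42, 3.78 and 3.41 CPM in the bergapten libraries, 4.9, 1.03 and 4.02 CPM in the IMQ libraries and 287, 394 and 267 CPM in the vaseline libraries. Retnla fell by 6.35 ± 0.18 on the log2 scale (SE, edgeR adjusted p = 4.97e-08). Clec10a, a galactose lectin of dermal macrophages and dendritic cells, had 47.3, 41 and 34.1 CPM in bergapten skin, 96.5, 68.6 and 77.8 CPM in IMQ skin and 145, 169.8 and 141 CPM in vaseline skin. Clec10a fell by 1.90 ± 0.12 on the log2 scale (SE, edgeR adjusted p = 6.66e-07). Mrc1, the mannose receptor, and Csf1r, the receptor for the growth factor CSF-1, were at the vaseline level. Mrc1 had 378, 423 and 344 CPM with bergapten, 453, 394 and 412 CPM with IMQ and 346, 402 and 346 CPM with vaseline (log2 fold change 0.06 ± 0.092 SE, edgeR adjusted p within 1.5-fold = 0.000712), and Csf1r had 336, 357 and 312 CPM in the bergapten libraries, 312, 295 and 236 CPM in the IMQ libraries and 336, 376 and 307 CPM in the vaseline libraries. Csf1r differed by -0.02 ± 0.088 on the log2 scale (SE, edgeR adjusted p within 1.5-fold = 0.000416).

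All 32 cell cycle genes were higher in bergapten skin, with a median log2 fold change of 1.93. Mki67, the proliferation antigen Ki-67, had 202, 207 and 228 CPM in bergapten skin, 147, 57.2 and 158 CPM in IMQ skin and 63.4, 53.96 and 46.4 CPM in vaseline skin. Mki67 rose by 1.96 ± 0.11 on the log2 scale (SE, edgeR adjusted p = 9.89e-08). Top2a, the topoisomerase of dividing cells, had 127, 132 and 149 CPM with bergapten, 100.1, 39.9 and 111 CPM with IMQ and 41.9, 33.7 and 32.7 CPM with vaseline. Top2a rose by 1.91 ± 0.10 on the log2 scale (SE, edgeR adjusted p = 6.77e-08). Kif11, a motor of the mitotic spindle, had 43.7, 46.1 and 55.4 CPM in the bergapten libraries, 33.3, 13.6 and 38.7 CPM in the IMQ libraries and 11.6, 10.6 and 9.49 CPM in the vaseline libraries. Kif11 rose by 2.20 ± 0.12 on the log2 scale (SE, edgeR adjusted p = 5.48e-08). For these 3 genes every bergapten library lay above every IMQ library. The summed level of the list was 1539.5, 1569 and 1815 CPM in bergapten skin, 1222, 613 and 1359 CPM in IMQ skin and 615, 519 and 498 CPM in vaseline skin. IMQ replicate 2 lay within the vaseline range. Which cells carried these transcripts is not resolved in whole skin.

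Differentiation genes of the upper epidermis were mostly raised, 21 of 36 higher, 5 lower and 4 within 1.5-fold. The last count was unsteady, at 9 without bergapten replicate 1, 1 without bergapten replicate 3 and 2 without any other single library, and at 0 with all 9 libraries in the fit. Krt1, a keratin of the spinous layer (ENSMUSG00000046834, chromosome 15, 101753861 to 101759229, minus strand), had 10590, 8655 and 8153 CPM in bergapten skin, 7571, 8991 and 5164 CPM in IMQ skin and 1298, 1164 and 1178 CPM in vaseline skin. Krt1 rose by 2.91 ± 0.095 on the log2 scale (SE, edgeR adjusted p = 4.73e-09). Casp14, the protease of cornifying keratinocytes, had 714, 679 and 611 CPM with bergapten, 485, 797 and 411 CPM with IMQ and 34.99, 25.9 and 25.1 CPM with vaseline. Casp14 rose by 4.54 ± 0.12 on the log2 scale (SE, edgeR adjusted p = 7.65e-09). Dsc1, a cadherin of upper-layer desmosomes, had 865, 949 and 844 CPM in the bergapten libraries, 816, 805 and 739.6 CPM in the IMQ libraries and 153, 129.8 and 154 CPM in the vaseline libraries. Dsc1 rose by 2.61 ± 0.084 on the log2 scale (SE, edgeR adjusted p = 2.55e-09). Rptn, repetin of the cornified envelope, had 456, 420.4 and 396 CPM in bergapten skin, 293, 257 and 253 CPM in IMQ skin and 45.02, 55.5 and 44.3 CPM in vaseline skin. Rptn rose by 3.14 ± 0.097 on the log2 scale (SE, edgeR adjusted p = 2.55e-09). Of 16 basal keratinocyte genes 7 were higher, 5 lower and 6 within (2 with all 9 libraries in the fit). Krt5, a basal keratin, had 2731, 3238 and 3462 CPM with bergapten, 2734, 2322 and 2718 CPM with IMQ and 1698, 1579.6 and 1458 CPM with vaseline (log2 fold change 0.99 ± 0.092 SE, edgeR adjusted p = 4.09e-06), and its partner Krt14 had 4904, 6435 and 7339 CPM in the bergapten libraries, 7020.2, 4359.9 and 6718 CPM in the IMQ libraries and 1667, 1441 and 1394 CPM in the vaseline libraries. Krt14 rose by 2.05 ± 0.15 on the log2 scale (SE, edgeR adjusted p = 1.69e-05). Against these rises stood Krt77, a keratin of the same type as Krt1, with the largest fall of any gene in the list (ENSMUSG00000067594, chromosome 15, 101767166 to 101778140, minus strand). It had 7.29, 3.08 and 2.14 CPM in bergapten skin, 4.12, 21.9 and 1.02 CPM in IMQ skin and 1563, 1500.4 and 1564 CPM in vaseline skin. Krt77 fell by 8.56 ± 0.44 on the log2 scale (SE, edgeR adjusted p = 0.000243). Krt2, a keratin of the uppermost living layers, had 0.657, 0.298 and 0.255 CPM with bergapten, 0, 0 and 1.02 CPM with IMQ and 39.6, 16.6 and 16.01 CPM with vaseline. Krt2 fell by 5.92 ± 0.83 on the log2 scale (SE, edgeR adjusted p = 0.000601). The filaggrin genes, whose products bundle keratin and hold water in the horny layer, parted: Flg had 926, 735 and 518 CPM in the bergapten libraries, 616, 1381 and 319.8 CPM in the IMQ libraries and 47.4, 28.8 and 26.2 CPM in the vaseline libraries (log2 fold change 4.41 ± 0.34 SE, edgeR adjusted p = 0.00065), whereas Flg2 had 54.8, 38.9 and 23.4 CPM in bergapten skin, 49, 274 and 14.98 CPM in IMQ skin and 531, 492 and 547 CPM in vaseline skin. Flg2 fell by 3.75 ± 0.32 on the log2 scale (SE, edgeR adjusted p = 0.000748). Lor, loricrin of the envelope, was called neither way. Sbsn, suprabasin, was at the vaseline level in the 6 libraries (log2 fold change 0.04 ± 0.082 SE, edgeR adjusted p within 1.5-fold = 0.000376), a call that ended with all 9 libraries in the fit (adjusted p = 0.054).

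Enzymes that make the barrier lipids were higher in 16 of 24 cases and lower in 6, against 25.7% and 25.4% of all genes. Their log2 fold changes ran from -3.27 to 6.68. The summed level of the list was not raised: it was 2743, 3365.5 and 2897 CPM in bergapten skin, 3191, 4053 and 3241 CPM in IMQ skin and 3514, 3595 and 3415 CPM in vaseline skin. The genes named next are among those that rose. Cers3, which makes the ceramides with very long acyl chains, had 84.8, 111 and 99.1 CPM with bergapten, 133, 174 and 150.1 CPM with IMQ and 21.5, 18.5 and 20.8 CPM with vaseline. Cers3 rose by 2.28 ± 0.10 on the log2 scale (SE, edgeR adjusted p = 1.75e-08). Alox12b, the lipoxygenase that processes them, had 65.1, 86.5 and 77.7 CPM in the bergapten libraries, 100.3, 88.8 and 101 CPM in the IMQ libraries and 23.9, 24.1 and 25.5 CPM in the vaseline libraries. Alox12b rose by 1.64 ± 0.10 on the log2 scale (SE, edgeR adjusted p = 1.56e-07). Alox8, another epidermal lipoxygenase, had 91.7, 138 and 138 CPM in bergapten skin, 82, 51.01 and 215 CPM in IMQ skin and 1.48, 1.11 and 0.949 CPM in vaseline skin. Alox8 rose by 6.68 ± 0.31 on the log2 scale (SE, edgeR adjusted p = 3.96e-07). Polyamine and arginine metabolism was raised in 9 of 17 genes, lowered in 2 (4 without bergapten replicate 1) and within the margin in 4 (2 with all 9 libraries). Smox, spermine oxidase, had 145, 173 and 177 CPM with bergapten, 171, 187 and 238 CPM with IMQ and 26.01, 27.9 and 23.1 CPM with vaseline. Smox rose by 2.69 ± 0.097 on the log2 scale (SE, edgeR adjusted p = 3.56e-09). Odc1, which starts polyamine synthesis, was within 1.5-fold (log2 fold change 0.17 ± 0.092 SE, edgeR adjusted p within 1.5-fold = 0.00235), though not with all 9 libraries in the fit (adjusted p = 0.185). Slc7a11, the cystine transporter, had 81.3, 148 and 157 CPM in the bergapten libraries, 255, 104 and 261 CPM in the IMQ libraries and 1.31, 0.979 and 0.949 CPM in the vaseline libraries (log2 fold change 6.88 ± 0.52 SE, edgeR adjusted p = 8.45e-05) in a list of 22 glutathione and NRF2 genes of which 12 lay within 1.5-fold.

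**Figure D2:**
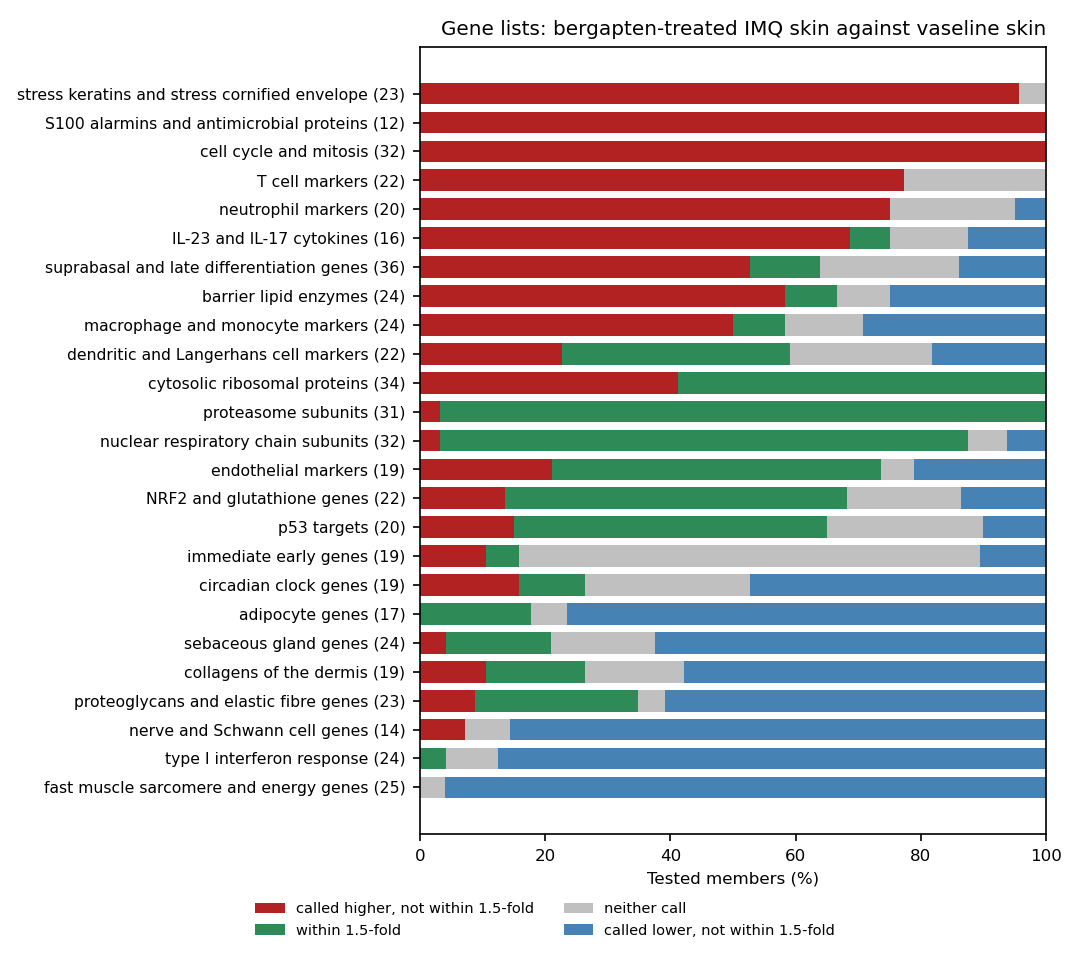
Share of tested members (horizontal, %) of 25 gene lists that were called higher in bergapten skin and outside the margin (red), within 1.5-fold of vaseline skin (green, including genes also called), neither (grey), or called lower and outside the margin (blue); the number tested stands in brackets. Cell cycle and alarmin lists are wholly red, 30 of 31 proteasome genes are green, and 24 of 25 muscle genes are blue.

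Transcripts of the main fibre collagens of the dermis stayed far below vaseline skin. Of 19 collagen genes 11 were lower, 3 higher and 3 within 1.5-fold (6 with DESeq2 or no filter on counts), against 25.4% of all genes called lower. The median log2 fold change of the list was -0.57. Col1a2, a chain of type I collagen (ENSMUSG00000029661, chromosome 6, 4504814 to 4541544, plus strand), had 8868, 6319.7 and 8052 CPM in bergapten skin, 2115, 3745 and 5396 CPM in IMQ skin and 33436, 33006 and 32620 CPM in vaseline skin. Col1a2 fell by 2.09 ± 0.11 on the log2 scale (SE, edgeR adjusted p = 3.17e-07). Col1a1, the other chain, had 9497, 6713 and 8959 CPM with bergapten, 1911, 3635 and 5741 CPM with IMQ and 29747, 30988 and 29462 CPM with vaseline. Col1a1 fell by 1.84 ± 0.11 on the log2 scale (SE, edgeR adjusted p = 1.63e-06). Col3a1, the chain of type III collagen, had 8851, 7252 and 9069.7 CPM in the bergapten libraries, 1899, 3359 and 5553 CPM in the IMQ libraries and 24092, 29270 and 24984 CPM in the vaseline libraries. Col3a1 fell by 1.64 ± 0.099 on the log2 scale (SE, edgeR adjusted p = 4.04e-07). For all 3 genes each bergapten library lay above each IMQ library and below each vaseline library. The list summed to 32087, 24420 and 31037 CPM in bergapten skin, 8456, 14119 and 20484 CPM in IMQ skin and 92779, 100520 and 92953 CPM in vaseline skin. Most of each sum came from these 3 genes. Col4a1 and Col4a2, chains of a basement membrane collagen, were at the vaseline level. Col4a1 had 529, 565 and 606 CPM in bergapten skin, 618, 700.3 and 594 CPM in IMQ skin and 438, 652 and 567 CPM in vaseline skin (log2 fold change 0.04 ± 0.13 SE, edgeR adjusted p within 1.5-fold = 0.00598). Col4a2 was likewise within the margin (log2 fold change 0.05 ± 0.12 SE, edgeR adjusted p within 1.5-fold = 0.0034). Col15a1 was lower (log2 fold change -1.27 ± 0.093 SE, edgeR adjusted p = 5.45e-07). Col18a1 was both called higher and within the margin (log2 fold change 0.33 ± 0.095 SE, edgeR adjusted p = 0.0131).

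Partners of the collagen fibre fell too, 17 of 23 proteoglycan and elastic fibre genes being lower with 4 higher. Sparc, a collagen-binding protein of remodelling matrix, had 3331, 2475 and 3269.6 CPM with bergapten, 1055, 1826 and 2459 CPM with IMQ and 16340, 16833 and 15379 CPM with vaseline. Sparc fell by 2.42 ± 0.11 on the log2 scale (SE, edgeR adjusted p = 7.5e-08). Omd, osteomodulin, had 5.26, 5.02 and 4.38 CPM in the bergapten libraries, 5.47, 13.2 and 6.72 CPM in the IMQ libraries and 25.3, 33.3 and 35.4 CPM in the vaseline libraries. Omd fell by 2.68 ± 0.15 on the log2 scale (SE, edgeR adjusted p = 7.09e-08). Prelp, a collagen-anchoring proteoglycan, had 65.5, 65.01 and 65.99 CPM in bergapten skin, 57.6, 88.6 and 83.9 CPM in IMQ skin and 167, 174 and 174 CPM in vaseline skin. Prelp fell by 1.39 ± 0.066 on the log2 scale (SE, edgeR adjusted p = 1.96e-08). Among the enzymes that process and cross-link collagen, 15 of 23 were lower and 1 higher. Pcolce2, an enhancer of procollagen cleavage, had 87.05, 75.9 and 64.3 CPM with bergapten, 63.3, 56.7 and 65.1 CPM with IMQ and 250.2, 274 and 269 CPM with vaseline. Pcolce2 fell by 1.80 ± 0.10 on the log2 scale (SE, edgeR adjusted p = 9.53e-08). Lox, lysyl oxidase, had 169, 177 and 175 CPM in the bergapten libraries, 283, 529 and 269 CPM in the IMQ libraries and 353, 397 and 418 CPM in the vaseline libraries (log2 fold change -1.16 ± 0.079 SE, edgeR adjusted p = 2.75e-07), below vaseline skin in bergapten libraries while 1 IMQ library lay above it. Of the proteases and their inhibitors, 8 of 21 were higher and 6 lower: Adamts4, an aggrecanase, had 12.3, 12.9 and 17.3 CPM in bergapten skin, 29.6, 25.04 and 27.9 CPM in IMQ skin and 2.35, 2.68 and 2.97 CPM in vaseline skin (log2 fold change 2.41 ± 0.19 SE, edgeR adjusted p = 9.49e-07), and Timp2, an inhibitor of metalloproteinases, had 679.6, 648 and 619 CPM with bergapten, 555, 732 and 577 CPM with IMQ and 1383, 1480.4 and 1383 CPM with vaseline. Timp2 fell by 1.13 ± 0.069 on the log2 scale (SE, edgeR adjusted p = 1.24e-07).

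Fibroblast genes divided. Pdgfra and Pdgfrb, the receptors for platelet-derived growth factor that mark fibroblasts and pericytes, were at the vaseline level. Pdgfra had 162, 177 and 194 CPM in the bergapten libraries, 247, 240.2 and 235 CPM in the IMQ libraries and 156, 188 and 164 CPM in the vaseline libraries (log2 fold change 0.07 ± 0.092 SE, edgeR adjusted p within 1.5-fold = 0.000781), and Pdgfrb had 135, 138 and 145 CPM in bergapten skin, 114, 119 and 123 CPM in IMQ skin and 138, 144 and 140 CPM in vaseline skin. Pdgfrb differed by -0.02 ± 0.068 on the log2 scale (SE, edgeR adjusted p within 1.5-fold = 0.000342). In the list of 17, 10 were lower, 2 higher and 5 within the margin. The 2 became 1 without bergapten replicate 2 or any single vaseline library, without Rn18s, with the replicate block, with RLE size factors and with all 9 libraries. Sfrp4, a secreted Wnt inhibitor, had 22.7, 21.4 and 22.4 CPM with bergapten, 5.84, 5.14 and 8.4 CPM with IMQ and 166, 222 and 177 CPM with vaseline. Sfrp4 fell by 3.09 ± 0.11 on the log2 scale (SE, edgeR adjusted p = 5.21e-09). Dpt, dermatopontin, had 264, 270.3 and 256 CPM in the bergapten libraries, 166, 179.6 and 213 CPM in the IMQ libraries and 769, 949.8 and 760.2 CPM in the vaseline libraries. Dpt fell by 1.65 ± 0.089 on the log2 scale (SE, edgeR adjusted p = 5.82e-08). In the TGF-beta pathway, which drives matrix synthesis, 11 of 18 were lower, 4 higher (2 without vaseline replicate 1) and 5 within. Tgfb2 had 35.2, 31.6 and 28.9 CPM in bergapten skin, 22.6, 23.8 and 21.9 CPM in IMQ skin and 72.5, 90.3 and 101 CPM in vaseline skin (log2 fold change -1.46 ± 0.12 SE, edgeR adjusted p = 4.49e-06), whereas Tgfb1 had 105, 98.6 and 115 CPM with bergapten, 84.2, 95.1 and 83.1 CPM with IMQ and 50.7, 61.7 and 46.4 CPM with vaseline. Tgfb1 rose by 1.00 ± 0.10 on the log2 scale (SE, edgeR adjusted p = 1.22e-05). Smad4, the shared signal carrier, was at the vaseline level (log2 fold change -0.05 ± 0.073 SE, edgeR adjusted p within 1.5-fold = 0.000342).

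Muscle, fat and nerve genes were lowered beside the matrix genes, and the part that tissue makeup had in these differences was not tested. Of 25 fast muscle genes 24 were lower, with a median log2 fold change of -1.73. Acta1, the actin of skeletal muscle (ENSMUSG00000031972, chromosome 8, 124618508 to 124621490, minus strand), had 1678, 1653 and 1598 CPM in the bergapten libraries, 1169.5, 1732 and 1376 CPM in the IMQ libraries and 6249.8, 6401 and 6789 CPM in the vaseline libraries. Acta1 fell by 1.98 ± 0.064 on the log2 scale (SE, edgeR adjusted p = 2.55e-09). Myl1, a myosin light chain, had 181, 148 and 172 CPM in bergapten skin, 90.03, 150.2 and 172 CPM in IMQ skin and 1042, 1186 and 1043 CPM in vaseline skin. Myl1 fell by 2.71 ± 0.088 on the log2 scale (SE, edgeR adjusted p = 2.63e-09). The summed level was 8605, 8476 and 8113 CPM in bergapten skin, 8425, 11407 and 10643 CPM in IMQ skin and 28329, 29990 and 30571 CPM in vaseline skin. Of 14 nerve and Schwann cell genes 12 were lower and 1 higher. Of 17 adipocyte genes 13 were lower, 2 higher and 3 within 1.5-fold. The 2 became 1 without bergapten replicate 2 or 3, vaseline replicate 2 or 3 or Rn18s, and the 3 became 1 without vaseline replicate 2 or 3. Adipoq, adiponectin, had 109, 112 and 102 CPM with bergapten, 202, 51.6 and 107 CPM with IMQ and 242, 241 and 247 CPM with vaseline. Adipoq fell by 1.18 ± 0.071 on the log2 scale (SE, edgeR adjusted p = 1.14e-07). Cd36, a fatty acid transporter, had 224, 251 and 227 CPM in the bergapten libraries, 623, 564 and 281 CPM in the IMQ libraries and 522, 539 and 557 CPM in the vaseline libraries. Cd36 fell by 1.20 ± 0.073 on the log2 scale (SE, edgeR adjusted p = 1.24e-07). With all 9 libraries in the fit 6 were lower, 1 was higher and 0 lay within. The list summed to 4218, 3768 and 3774 CPM in bergapten skin, 7583, 3847 and 3679.8 CPM in IMQ skin and 6751, 6725 and 6618 CPM in vaseline skin.

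The sebaceous gland list was also low, with 15 of 24 lower, 1 higher and 4 within 1.5-fold (2 without bergapten replicate 2 or vaseline replicate 1 or 2). Scd3, a desaturase of sebocytes, had 9.02, 23.3 and 10.8 CPM in bergapten skin, 16.8, 31.9 and 9.98 CPM in IMQ skin and 657, 612 and 571 CPM in vaseline skin. Scd3 fell by 5.41 ± 0.39 on the log2 scale (SE, edgeR adjusted p = 0.000667). Awat2, which makes wax esters of sebum, had 3.41, 4.37 and 3.01 CPM with bergapten, 7.09, 4.06 and 2.8 CPM with IMQ and 52.5, 44.8 and 48.9 CPM with vaseline. Awat2 fell by 3.76 ± 0.14 on the log2 scale (SE, edgeR adjusted p = 3.56e-09). Mc5r, the melanocortin receptor of sebocytes, had 3.82, 5.77 and 4.33 CPM in the bergapten libraries, 10.2, 5.08 and 4.94 CPM in the IMQ libraries and 42.5, 29.1 and 28.7 CPM in the vaseline libraries. Mc5r fell by 2.84 ± 0.20 on the log2 scale (SE, edgeR adjusted p = 1.53e-06). The exception was Fabp5, a fatty acid carrier also made by keratinocytes, which had 1003, 1407 and 1281 CPM in bergapten skin, 1309.9, 896 and 1348 CPM in IMQ skin and 237, 264 and 208 CPM in vaseline skin. Fabp5 rose by 2.38 ± 0.13 on the log2 scale (SE, edgeR adjusted p = 1.14e-06). Acly, which supplies acetyl-CoA for lipid synthesis, was at the vaseline level (log2 fold change -0.02 ± 0.14 SE, edgeR adjusted p within 1.5-fold = 0.00888). Of 11 bulge and resting follicle genes 5 were lower, none higher and 4 within the margin (2 with all 9 libraries). Without bergapten replicate 2, 1 was higher. Krt15, a keratin of the bulge, had 275, 202 and 195 CPM with bergapten, 93.5, 266 and 124 CPM with IMQ and 930.4, 976 and 1028 CPM with vaseline (log2 fold change -2.13 ± 0.12 SE, edgeR adjusted p = 7.87e-07), and Cd34, a surface marker of bulge stem cells and vessels, had 179, 152 and 157 CPM in the bergapten libraries, 120.1, 76.7 and 120.4 CPM in the IMQ libraries and 543, 649 and 533 CPM in the vaseline libraries. Cd34 fell by 1.82 ± 0.094 on the log2 scale (SE, edgeR adjusted p = 4.45e-08). Lgr5, a stem cell receptor of the follicle, was within the margin (log2 fold change -0.07 ± 0.15 SE, edgeR adjusted p within 1.5-fold = 0.00901) in the 6 libraries but not with all 9 (adjusted p = 0.213).

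Circadian clock genes were lower in 10 of 19 cases, with 3 higher. Nr1d1, the repressor REV-ERB alpha, had 38.3, 31.2 and 31.7 CPM in bergapten skin, 27.6, 37.5 and 24.9 CPM in IMQ skin and 187, 187 and 175 CPM in vaseline skin. Nr1d1 fell by 2.44 ± 0.087 on the log2 scale (SE, edgeR adjusted p = 3.56e-09). Nr1d2, its paralog, had 131, 104 and 111 CPM with bergapten, 75.5, 105 and 74.8 CPM with IMQ and 226, 199.6 and 238 CPM with vaseline. Nr1d2 fell by 0.94 ± 0.098 on the log2 scale (SE, edgeR adjusted p = 9.1e-06). Cry2, a repressor of the clock, had 38.7, 34.5 and 36.5 CPM in the bergapten libraries, 43.7, 67.8 and 40.4 CPM in the IMQ libraries and 83.1, 79.1 and 90.6 CPM in the vaseline libraries. Cry2 fell by 1.21 ± 0.081 on the log2 scale (SE, edgeR adjusted p = 2.45e-07). Clock itself was within 1.5-fold (log2 fold change 0.15 ± 0.09 SE, edgeR adjusted p within 1.5-fold = 0.00171). The labels give no hour of collection, so a difference in sampling time cannot be told apart from the treatments.

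Among the largest falls outside these lists were genes nearly lost from challenged skin, not all of which are named here. Serpina3b, a secreted serpin, had 4.42, 5.27 and 3.06 CPM in bergapten skin, 1.41, 0.433 and 0.917 CPM in IMQ skin and 203, 248 and 193 CPM in vaseline skin. Serpina3b fell by 5.66 ± 0.18 on the log2 scale (SE, edgeR adjusted p = 1.45e-07). Cyp2b23, a cytochrome P450, had 0.239, 0.348 and 0.153 CPM with bergapten, 0.313, 0 and 0.306 CPM with IMQ and 46, 60.7 and 41.3 CPM with vaseline. Cyp2b23 fell by 7.60 ± 0.43 on the log2 scale (SE, edgeR adjusted p = 3.56e-09). Serpinb6e, an intracellular serpin, had 0.358, 0.547 and 0 CPM in the bergapten libraries, 1.62, 0.108 and 0.153 CPM in the IMQ libraries and 26.2, 25.1 and 25.4 CPM in the vaseline libraries. Serpinb6e fell by 6.38 ± 0.55 on the log2 scale (SE, edgeR adjusted p = 1.78e-06). Adh6a, an alcohol dehydrogenase, had 2.03, 0.497 and 0.408 CPM in bergapten skin, 4.12, 5.41 and 0.713 CPM in IMQ skin and 39.9, 45.9 and 41.8 CPM in vaseline skin. Adh6a fell by 5.50 ± 0.49 on the log2 scale (SE, edgeR adjusted p = 7.2e-05). Sult1e1, the estrogen sulfotransferase, had no count in bergapten skin and 5.97, 10.7 and 4.69 CPM in vaseline skin, at least 131-fold lower against a floor of 3 counts over the bergapten group (edgeR adjusted p = 3.04e-05). In the list of 12 P450 genes 6 were lower, 3 higher and 3 within 1.5-fold, against 25.4%, 25.7% and 34.1% of all genes. The count within was 1 without vaseline replicate 2 and 0 with all 9 libraries. The levels in IMQ skin were also low for the 5 genes named above, none above 5.41 CPM.

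**Figure D3:**
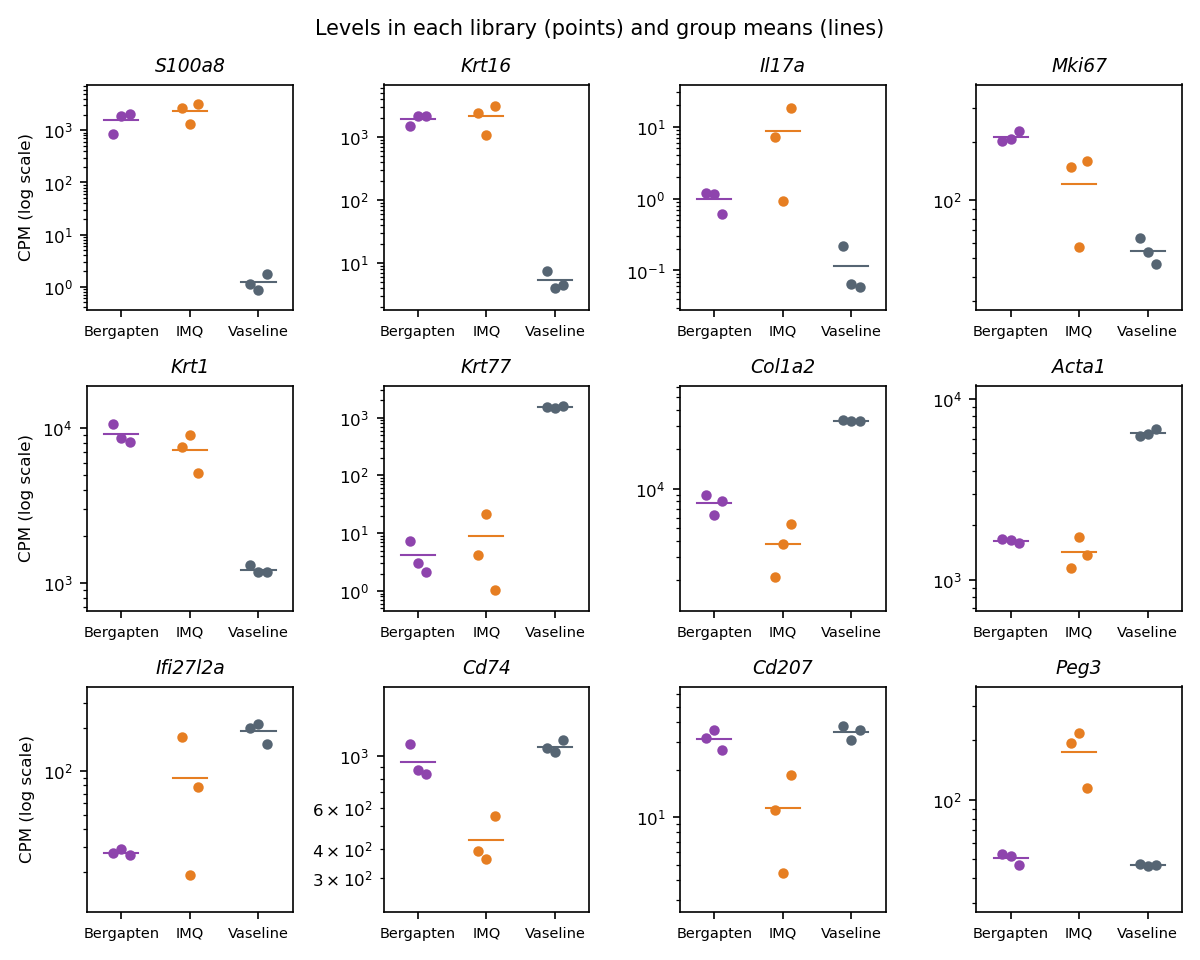
CPM (vertical, log scale) of 12 genes in the 3 libraries of each group, with points for libraries and lines for means; "Bergapten" stands for IMQ with bergapten. Collagen Col1a2 in bergapten skin lies between the other groups, Ifi27l2a lies below every vaseline library, and Cd74, Cd207 and Peg3 overlap with vaseline libraries while IMQ libraries lie apart.

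Interferon-stimulated genes were below vaseline skin after treatment. In the type I interferon list 22 of 24 were lower and none was higher, with a median log2 fold change of -1.21. Ifi27l2a, an interferon-induced protein of mitochondria (ENSMUSG00000079017, chromosome 12, 103408426 to 103409939, minus strand), had 27.1, 28.7 and 26.2 CPM with bergapten, 174, 18.98 and 77.5 CPM with IMQ and 198, 215 and 154 CPM with vaseline. Ifi27l2a fell by 2.79 ± 0.11 on the log2 scale (SE, edgeR adjusted p = 3.23e-08). The bergapten libraries were close together, the vaseline libraries were all higher, and the IMQ libraries spanned both. Usp18, which removes the ubiquitin-like tag ISG15, had 4.96, 3.33 and 4.59 CPM in the bergapten libraries, 9.17, 7.84 and 15.4 CPM in the IMQ libraries and 23.4, 21.9 and 19.8 CPM in the vaseline libraries. Usp18 fell by 2.34 ± 0.16 on the log2 scale (SE, edgeR adjusted p = 3.15e-07). Ifit1, a sensor of viral RNA caps, had 4.42, 2.63 and 3.92 CPM in bergapten skin, 6.99, 3.41 and 26.03 CPM in IMQ skin and 18.02, 14.8 and 13.3 CPM in vaseline skin. Ifit1 fell by 2.08 ± 0.20 on the log2 scale (SE, edgeR adjusted p = 4.84e-06). Ifit3, its binding partner, had 8.24, 6.16 and 6.98 CPM with bergapten, 10.1, 3.62 and 41.9 CPM with IMQ and 26.4, 31.8 and 21.5 CPM with vaseline. Ifit3 fell by 1.90 ± 0.16 on the log2 scale (SE, edgeR adjusted p = 1.92e-06). Isg15 had 7.11, 4.37 and 5.81 CPM in the bergapten libraries, 14.2, 5.57 and 38.4 CPM in the IMQ libraries and 28.9, 23.4 and 15.7 CPM in the vaseline libraries. Isg15 fell by 1.98 ± 0.25 on the log2 scale (SE, edgeR adjusted p = 0.000177). The list summed to 420.2, 347 and 367 CPM in bergapten skin, 761, 295 and 1183 CPM in IMQ skin and 988, 958 and 760.1 CPM in vaseline skin. With all 9 libraries sharing 1 estimate of the spread, 9 were called lower and Ifit3 was not (adjusted p = 0.078), while leaving out any 1 of the 6 libraries did not move the count by more than 1.5 times.

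Promoters of 3 of these genes are shown because the interferon-stimulated response element, the site of STAT and IRF complexes, is known to drive the family. Capitals mark matches to its core, TTTCNNTTTC, searched on both strands, in the 150 bases before the start (RefSeq, GRCm38.p6, 5′ to 3′ on the gene's strand). The genes shown were picked as the list members with the smallest p that held a match in these bases. Ifit3 lies at chr19:34583379-34583528, plus strand, Ifit1 at chr19:34640739-34640888, plus strand with 2 matches, and Isg15 at chr4:156200819-156200968, minus strand with 3 overlapping matches on the other strand.

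Ifit3: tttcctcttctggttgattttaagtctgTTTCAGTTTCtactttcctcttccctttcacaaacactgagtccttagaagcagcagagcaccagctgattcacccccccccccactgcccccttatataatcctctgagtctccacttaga

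Ifit1: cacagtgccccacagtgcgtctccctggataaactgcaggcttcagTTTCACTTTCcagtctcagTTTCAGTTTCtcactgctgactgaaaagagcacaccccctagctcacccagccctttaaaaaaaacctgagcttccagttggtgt

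Isg15: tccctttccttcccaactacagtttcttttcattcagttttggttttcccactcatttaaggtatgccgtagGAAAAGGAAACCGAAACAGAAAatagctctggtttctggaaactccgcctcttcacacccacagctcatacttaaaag

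Within 250 bases before the start the core stood in 8 of the 17 list genes with a promoter sequence (47.1%), against 3.35% of the 12255 tested genes with one and 1 of 25 in the cell cycle list. The list was made of known interferon-stimulated genes, so a high share could be foreseen from that choice and is no result of these data. Similar genes such as Ifit3 and Ifit3b were counted separately, and a match is not a bound site. Each motif was counted on its own, and 5 of the 17 also held TGANTCA. All tested genes at least 4-fold lower held the interferon core in 3.75% of cases, and those at least 4-fold higher in 4%.

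Genes of the interferon gamma response were lower in 10 of 19 cases and within 1.5-fold in 4 (7 with the replicate block). Gbp2, a guanylate-binding GTPase, had 29.2, 25.7 and 20.9 CPM in bergapten skin, 61.5, 17.3 and 73.2 CPM in IMQ skin and 52.4, 43.8 and 52.96 CPM in vaseline skin. Gbp2 fell by 0.98 ± 0.12 on the log2 scale (SE, edgeR adjusted p = 5.31e-05). Irgm2, an immunity-related GTPase, had 28.02, 20.6 and 24.7 CPM with bergapten, 42.6, 10.5 and 59.8 CPM with IMQ and 50.5, 32.6 and 47.5 CPM with vaseline. Irgm2 fell by 0.84 ± 0.18 on the log2 scale (SE, edgeR adjusted p = 0.00397). Psmb9, an immunoproteasome subunit, was within the margin (log2 fold change -0.21 ± 0.092 SE, edgeR adjusted p within 1.5-fold = 0.00417), a call lost with all 9 libraries (adjusted p = 0.312). With all 9 libraries in the fit 1 of the list was lower and 0 lay within, and the calls of Gbp2 (adjusted p = 0.12) and Irgm2 (adjusted p = 0.24) were lost. Chemokines other than the neutrophil attractants were lower in 12 of 20 cases and higher in 2, with 6 lower when all 9 libraries were fitted. The 2 became 4 without bergapten replicate 1, and 1 without bergapten replicate 3 or any single vaseline library and with the replicate block. Ccl8, an attractant of monocytes, had 93.4, 115 and 97.8 CPM in the bergapten libraries, 253, 45.1 and 209.6 CPM in the IMQ libraries and 369, 348 and 280.5 CPM in the vaseline libraries. Ccl8 fell by 1.70 ± 0.11 on the log2 scale (SE, edgeR adjusted p = 6.99e-07). Ccl11, eotaxin, had 10.7, 15.3 and 13.6 CPM in bergapten skin, 15.5, 13.5 and 17.3 CPM in IMQ skin and 30.4, 37.3 and 31.5 CPM in vaseline skin. Ccl11 fell by 1.32 ± 0.14 on the log2 scale (SE, edgeR adjusted p = 8.13e-06). Ccl27a, the keratinocyte attractant of skin T cells, had 10.9, 9.49 and 7.54 CPM with bergapten, 9.9, 50.9 and 5.45 CPM with IMQ and 33.6, 29.1 and 30.7 CPM with vaseline. Ccl27a fell by 1.74 ± 0.14 on the log2 scale (SE, edgeR adjusted p = 8.28e-07). This call was lost with all 9 libraries in the fit (adjusted p = 0.093). Cxcl12 was at the vaseline level (log2 fold change 0.12 ± 0.096 SE, edgeR adjusted p within 1.5-fold = 0.00156).

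Cyp1b1, a P450 induced through the aryl hydrocarbon receptor and able to oxidise many planar compounds, had 32.1, 41.5 and 30.6 CPM in the bergapten libraries, 108, 191 and 87.6 CPM in the IMQ libraries and 50.7, 55.9 and 64.1 CPM in the vaseline libraries (log2 fold change -0.71 ± 0.13 SE, edgeR adjusted p = 0.000853); the call was lost with all 9 libraries in the fit (adjusted p = 0.069). Its IMQ libraries lay above the vaseline range. Cyp1a1, the classic target of that receptor, had 10.5, 25.4 and 14.8 CPM in bergapten skin, 18.4, 4.87 and 12.8 CPM in IMQ skin and 34.2, 30.5 and 25.9 CPM in vaseline skin. The bergapten libraries lay below the vaseline libraries, but the gene was called neither lower nor within the margin (log2 fold change -0.83 ± 0.33 SE, edgeR adjusted p = 0.0909). Without bergapten replicate 2 it was called lower (edgeR adjusted p = 0.000125). In the receptor's list of 11 genes, 4 were higher, 2 lower (0 with all 9 libraries) and 2 within 1.5-fold, against 25.7%, 25.4% and 34.1% of all genes. The receptor Ahr and its partner Arnt were the 2 within the margin (0.0261 and 0.00047 as edgeR adjusted p within 1.5-fold). The Ahr call was lost without bergapten replicate 1 or 2, without vaseline replicate 1 or 2, with the replicate block and with all 9 libraries, with an adjusted p of up to 0.102. Zbtb16, a transcription factor induced by glucocorticoids, had 11.5, 14.3 and 16.1 CPM with bergapten, 92.9, 144 and 40.04 CPM with IMQ and 47.98, 55.98 and 51.7 CPM with vaseline. Zbtb16 fell by 1.89 ± 0.12 on the log2 scale (SE, edgeR adjusted p = 1.72e-07). Klf9 and Klf15, induced by the same hormones, were lower too: Klf9 had 82.3, 79.6 and 86.9 CPM in the bergapten libraries, 196, 253 and 107 CPM in the IMQ libraries and 164, 147 and 205 CPM in the vaseline libraries (log2 fold change -1.05 ± 0.11 SE, edgeR adjusted p = 1.92e-05), and Klf15 had 11.8, 11.4 and 10.9 CPM in bergapten skin, 36.9, 59.5 and 23.8 CPM in IMQ skin and 25.7, 24.01 and 27.3 CPM in vaseline skin. Klf15 fell by 1.18 ± 0.11 on the log2 scale (SE, edgeR adjusted p = 2.89e-06). In the list of 17 muscle atrophy and glucocorticoid response genes, 8 were lower and none higher, against 25.4% and 25.7% of all genes. That list mixes both kinds of gene, so its counts are not those of a hormone response alone. In it 1 was higher without bergapten replicate 1 or vaseline replicate 3, with the replicate block, with DESeq2 and with all 9 libraries. With library size alone or no filter on counts 2 were higher. Gsta3, a glutathione transferase, had 13.3, 17.3 and 10.7 CPM with bergapten, 62.1, 15.3 and 38 CPM with IMQ and 42.7, 35.2 and 36.1 CPM with vaseline. Gsta3 fell by 1.47 ± 0.16 on the log2 scale (SE, edgeR adjusted p = 3.28e-05).

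In the dendritic and Langerhans list of 22, 8 lay within 1.5-fold, 6 were higher and 4 lower, a share within the margin near the 34.1% of all genes. The 4 became 9 without bergapten replicate 1, and with all 9 libraries in the fit 3 lay within. Of the members named here, Cd74 and Cd207 were also picked for a low level in IMQ skin, which is therefore a description. Cd74, a chaperone of MHC class II molecules, had 1124, 874 and 834 CPM in the bergapten libraries, 393, 363 and 553 CPM in the IMQ libraries and 1081, 1039.9 and 1167 CPM in the vaseline libraries. Cd74 differed by -0.22 ± 0.11 on the log2 scale (SE, edgeR adjusted p within 1.5-fold = 0.0118). H2-Aa, a class II alpha chain (ENSMUSG00000036594, chromosome 17, 34501718 to 34506797, minus strand), had 379, 302 and 265 CPM in bergapten skin, 134, 128 and 207 CPM in IMQ skin and 319, 332 and 347 CPM in vaseline skin. H2-Aa differed by -0.07 ± 0.12 on the log2 scale (SE, edgeR adjusted p within 1.5-fold = 0.00346). H2-Ab1, the beta chain paired with it, had 343, 257 and 268 CPM with bergapten, 135, 106 and 178 CPM with IMQ and 300.2, 304 and 329 CPM with vaseline. H2-Ab1 differed by -0.10 ± 0.11 on the log2 scale (SE, edgeR adjusted p within 1.5-fold = 0.00247). Cd207, langerin of Langerhans cells, had 31.96, 35.8 and 26.5 CPM in the bergapten libraries, 11.2, 4.44 and 18.6 CPM in the IMQ libraries and 37.8, 30.99 and 35.5 CPM in the vaseline libraries. Cd207 differed by -0.15 ± 0.12 on the log2 scale (SE, edgeR adjusted p within 1.5-fold = 0.00743). The calls of H2-Aa and H2-Ab1 held in every fit run, while that of Cd207 was lost without bergapten replicate 2 (adjusted p = 0.056) and with all 9 libraries (adjusted p = 0.335). Cd74 lost it without vaseline replicate 1 (adjusted p = 0.057) and with all 9 libraries (adjusted p = 0.082).

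Other members of the list were called. Flt3, the growth receptor of conventional dendritic cells, had 13.6, 15.2 and 14.7 CPM in bergapten skin, 6.99, 10.1 and 10.4 CPM in IMQ skin and 5.91, 6.2 and 5.4 CPM in vaseline skin. Flt3 rose by 1.31 ± 0.14 on the log2 scale (SE, edgeR adjusted p = 1e-05). Mgl2, a lectin of dermal dendritic cells, had 17.9, 14.9 and 8.97 CPM with bergapten, 3.02, 6.54 and 5.25 CPM with IMQ and 111, 122 and 107 CPM with vaseline. Mgl2 fell by 3.03 ± 0.23 on the log2 scale (SE, edgeR adjusted p = 0.000106). Cd209a, a lectin of the same cells, had 7.23, 10.3 and 9.32 CPM in the bergapten libraries, 1.09, 3.19 and 6.42 CPM in the IMQ libraries and 37.8, 44.2 and 38.4 CPM in the vaseline libraries. Cd209a fell by 2.16 ± 0.13 on the log2 scale (SE, edgeR adjusted p = 1.24e-07). The summed list gave 2652, 2133 and 2023 CPM in bergapten skin, 1032, 1121 and 1405 CPM in IMQ skin and 2543, 2555 and 2733 CPM in vaseline skin.

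Other genes picked for a low IMQ level were of varied function. Gzmc, a granzyme, had 48.7, 53.9 and 44.4 CPM in bergapten skin, 11.3, 7.52 and 7.49 CPM in IMQ skin and 39.3, 36.7 and 43.9 CPM in vaseline skin (log2 fold change 0.29 ± 0.097 SE, edgeR adjusted p within 1.5-fold = 0.0202), a call lost without bergapten replicate 3 or vaseline replicate 3 (adjusted p of up to 0.093), with library size alone (adjusted p = 0.1) and with all 9 libraries (adjusted p = 0.128). Septin3, a cytoskeletal GTPase, had 29.3, 23.7 and 25.8 CPM with bergapten, 9.8, 7.19 and 11.3 CPM with IMQ and 24.7, 22.7 and 24.02 CPM with vaseline (log2 fold change 0.14 ± 0.10 SE, edgeR adjusted p within 1.5-fold = 0.00334) and kept its call in every fit run. Lum, the proteoglycan lumican, had 717, 725 and 747 CPM in the bergapten libraries, 269, 359.7 and 655 CPM in the IMQ libraries and 964, 986 and 875 CPM in the vaseline libraries. It was both called lower and within the margin (log2 fold change -0.37 ± 0.07 SE, edgeR adjusted p within 1.5-fold = 0.0169). The within call was lost without bergapten replicate 2 or 3 or vaseline replicate 1 or 3 (adjusted p of up to 0.0932) and with all 9 libraries (adjusted p = 0.445).

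Genes at the vaseline level that were picked for a high level in IMQ skin included several of vessels and transport. Peg3, an imprinted zinc finger gene, had 53.2, 51.7 and 46.8 CPM in bergapten skin, 194, 218 and 115 CPM in IMQ skin and 47.3, 46.2 and 46.6 CPM in vaseline skin (log2 fold change 0.11 ± 0.078 SE, edgeR adjusted p within 1.5-fold = 0.000529), a call lost with all 9 libraries in the fit (adjusted p = 0.066). Slc39a14, a zinc and iron transporter, had 45.4, 47.9 and 55.3 CPM with bergapten, 128, 160.3 and 122 CPM with IMQ and 46.3, 39.5 and 41.3 CPM with vaseline. Slc39a14 differed by 0.23 ± 0.096 on the log2 scale (SE, edgeR adjusted p within 1.5-fold = 0.00669). Cyyr1 had 22.9, 22.1 and 22.2 CPM in the bergapten libraries, 50.7, 53.1 and 44.98 CPM in the IMQ libraries and 19.2, 21.3 and 24.4 CPM in the vaseline libraries. Cyyr1 differed by 0.05 ± 0.11 on the log2 scale (SE, edgeR adjusted p within 1.5-fold = 0.00155). Gpihbp1, which carries lipoprotein lipase across capillary endothelium, had 22.6, 20.6 and 26.8 CPM in bergapten skin, 85.1, 71.5 and 30.8 CPM in IMQ skin and 27.3, 22.2 and 23.8 CPM in vaseline skin (log2 fold change -0.07 ± 0.12 SE, edgeR adjusted p within 1.5-fold = 0.00357), lost with all 9 libraries (adjusted p = 0.195). Among the endothelial markers fixed as a list, 10 of 19 lay within 1.5-fold, 6 were higher and 5 lower (3 with all 9 libraries). The shares over all genes were 34.1%, 25.7% and 25.4%, so the counts higher and lower were near those of all genes. The count within was near the 48.8% of all genes at 10 to 100 CPM. Flt1, a receptor for vascular endothelial growth factor, had 43.97, 47.7 and 44.9 CPM with bergapten, 77.2, 76.4 and 69.4 CPM with IMQ and 45.1, 44.1 and 44.2 CPM with vaseline. Flt1 differed by 0.04 ± 0.076 on the log2 scale (SE, edgeR adjusted p within 1.5-fold = 0.000342). Cdh5, the cadherin of endothelial junctions, had 86.7, 89.9 and 94.98 CPM in the bergapten libraries, 139.8, 122 and 98.8 CPM in the IMQ libraries and 94.96, 103 and 101 CPM in the vaseline libraries. Cdh5 differed by -0.14 ± 0.07 on the log2 scale (SE, edgeR adjusted p within 1.5-fold = 0.000437). Vcam1, an adhesion molecule of inflamed vessels, stayed above vaseline skin: it had 38.8, 42.3 and 34.1 CPM in bergapten skin, 165, 193 and 92.2 CPM in IMQ skin and 13.5, 13.4 and 10.8 CPM in vaseline skin. Vcam1 rose by 1.61 ± 0.12 on the log2 scale (SE, edgeR adjusted p = 6.03e-07).

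Proteasome and respiratory chain lists lay largely at the vaseline level, against 34.1% of all genes. Of 31 proteasome subunits 30 lay within 1.5-fold, 13 were called higher and 12 were both. The 13 became 5 without bergapten replicate 2 or vaseline replicate 1, 6 without vaseline replicate 3, 7 without bergapten replicate 3 and 8 with all 9 libraries, and it became 21 with library size alone as the scale. Psma4 had 93.7, 106 and 99.6 CPM with bergapten, 114, 101 and 105 CPM with IMQ and 96.9, 97.5 and 95.7 CPM with vaseline. Psma4 differed by 0.05 ± 0.07 on the log2 scale (SE, edgeR adjusted p within 1.5-fold = 0.000342). Of 32 nuclear genes of the respiratory chain 27 lay within the margin, 9 were called lower and 2 higher. The 9 became 4 without bergapten replicate 1 or vaseline replicate 2, with library size alone and with all 9 libraries, and the 2 became 1 when any single library other than bergapten replicate 1 was left out. Atp5a1, a subunit of ATP synthase, had 855, 951 and 1013 CPM in the bergapten libraries, 902, 831 and 947 CPM in the IMQ libraries and 884, 934 and 861 CPM in the vaseline libraries. Atp5a1 differed by 0.07 ± 0.077 on the log2 scale (SE, edgeR adjusted p within 1.5-fold = 0.00038). Cytosolic ribosomal proteins showed a small rise: 32 of 34 were higher with a median log2 fold change of 0.39, and 20 lay within 1.5-fold, or 13 without bergapten replicate 1, 12 with all 9 libraries and 10 with library size alone as the scale. Rps19 had 393, 417 and 455 CPM in bergapten skin, 500.3, 608 and 523 CPM in IMQ skin and 374, 364 and 376 CPM in vaseline skin. Rps19 differed by 0.18 ± 0.074 on the log2 scale (SE, edgeR adjusted p within 1.5-fold = 0.000866). Of 10 genes of the mitochondrial genome 6 were lower and 5 within, the 5 being 3 without bergapten replicate 2 or vaseline replicate 1 or 3, without Rn18s and with all 9 libraries.

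**Figure D4:**
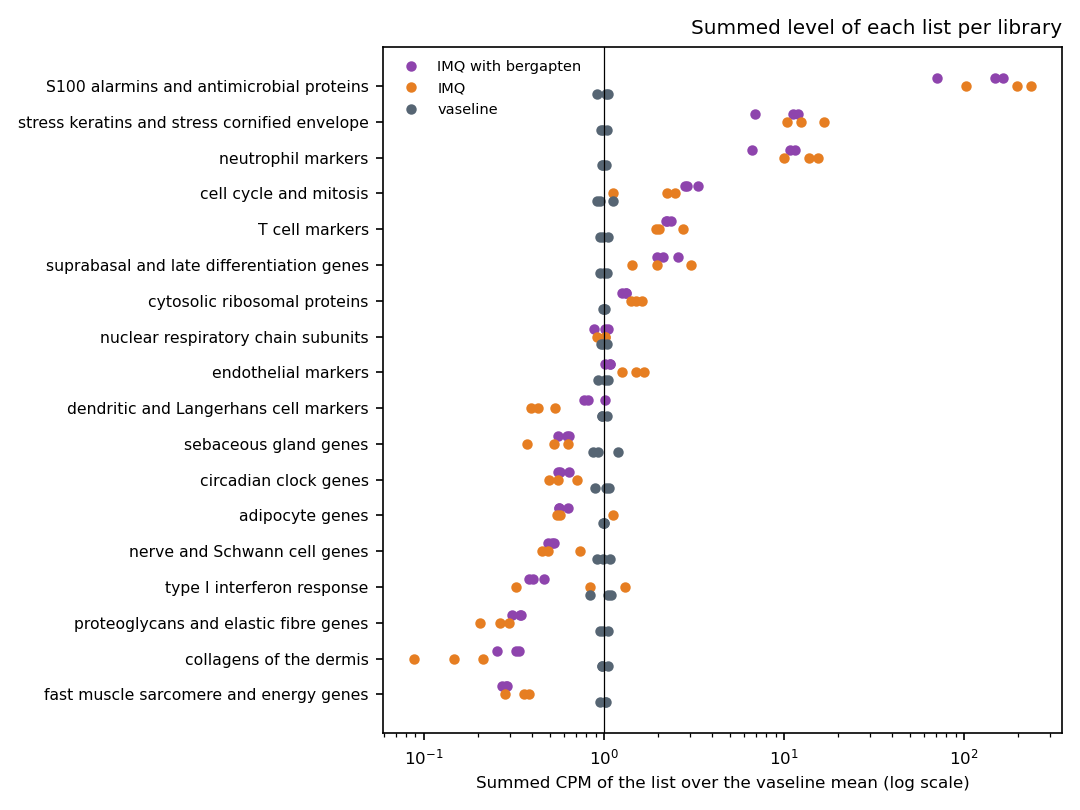
Summed CPM of 18 gene lists in each library, divided by the vaseline mean of that list (horizontal, log scale; the line marks 1), for bergapten, IMQ and vaseline libraries. Alarmin and stress keratin sums lie above 1 in every bergapten and IMQ library, and muscle and collagen sums lie below 1 in all of them.

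Of 20 p53 targets 10 lay within 1.5-fold (6 with all 9 libraries), 3 were higher and 3 lower. The 3 higher became 5 without bergapten replicate 2 or with no filter on counts and 8 with library size alone. Mdm2, the inhibitor of p53, had 58.7, 56.4 and 60.5 CPM with bergapten, 59.3, 58.4 and 60.3 CPM with IMQ and 59.1, 57.4 and 64.7 CPM with vaseline. Mdm2 differed by -0.05 ± 0.076 on the log2 scale (SE, edgeR adjusted p within 1.5-fold = 0.000348). Txnrd1, a target of the oxidant sensor NRF2, had 102, 102 and 101 CPM in the bergapten libraries, 115, 118 and 120.3 CPM in the IMQ libraries and 96.7, 103 and 101 CPM in the vaseline libraries. Txnrd1 differed by 0.02 ± 0.066 on the log2 scale (SE, edgeR adjusted p within 1.5-fold = 0.000342). In that list of 22, 5 were higher and 6 lower, near the shares over all genes (25.7% and 25.4%). Without bergapten replicate 2 the 5 became 2, and without bergapten replicate 1, with no filter on counts or with library size alone they became 9. With library size alone the 6 became 3. In the Notch and Wnt list of 28, 8 were higher, 10 lower and 9 within, near the shares over all genes (25.7%, 25.4% and 34.1%). The last count was 4 without bergapten replicate 3 or with all 9 libraries and 5 without vaseline replicate 2 or 3. Wnt4, a Wnt ligand, had 105, 116 and 123 CPM in bergapten skin, 65.6, 53.4 and 86.7 CPM in IMQ skin and 36.9, 32.6 and 31.1 CPM in vaseline skin. Wnt4 rose by 1.77 ± 0.087 on the log2 scale (SE, edgeR adjusted p = 2.73e-08). Dkk2, a Wnt antagonist of the dermis, had 14.8, 13.7 and 10.8 CPM with bergapten, 28.9, 51.7 and 21.4 CPM with IMQ and 49.5, 59.6 and 56.8 CPM with vaseline. Dkk2 fell by 2.08 ± 0.12 on the log2 scale (SE, edgeR adjusted p = 1e-07). Notch1 was at the vaseline level (log2 fold change 0.15 ± 0.091 SE, edgeR adjusted p within 1.5-fold = 0.0018). Among ligands and receptors of the EGF family 6 of 12 were higher and 4 lower: Nrg1 had 3.52, 4.97 and 7.39 CPM in the bergapten libraries, 18.04, 10.3 and 19.2 CPM in the IMQ libraries and 0.438, 0.0652 and 0.356 CPM in the vaseline libraries (log2 fold change 4.14 ± 0.54 SE, edgeR adjusted p = 1.83e-05), and the receptor Egfr had 97.9, 103 and 90.7 CPM in bergapten skin, 128, 126 and 129 CPM in IMQ skin and 166, 178 and 151 CPM in vaseline skin. Egfr fell by 0.77 ± 0.082 on the log2 scale (SE, edgeR adjusted p = 1.09e-05).

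Of 23 glycolysis genes 8 were higher, 6 lower and 7 within, against 25.7%, 25.4% and 34.1% of all genes. Pfkm, the phosphofructokinase of muscle, had 209, 231 and 199.7 CPM with bergapten, 132, 211 and 194 CPM with IMQ and 516, 529 and 585 CPM with vaseline (log2 fold change -1.35 ± 0.081 SE, edgeR adjusted p = 1.13e-07), beside the fall of the muscle list. Ldha, lactate dehydrogenase A, was within the margin (log2 fold change 0.01 ± 0.11 SE, edgeR adjusted p within 1.5-fold = 0.00109). Of 21 cholesterol synthesis genes 10 were higher, 5 lower and 6 within (3 without vaseline replicate 2). Their summed level was not raised: it was 2059, 2704 and 2551.5 CPM in bergapten skin and 2641, 2662 and 2589 CPM in vaseline skin. Among those higher was Sqle, squalene epoxidase, which had 173, 231 and 224 CPM in the bergapten libraries, 218, 185 and 190 CPM in the IMQ libraries and 88.9, 83.6 and 99.9 CPM in the vaseline libraries. Sqle rose by 1.20 ± 0.11 on the log2 scale (SE, edgeR adjusted p = 9.12e-06). Mast cell markers were higher in 6 of 12, or 3 without bergapten replicate 2 or vaseline replicate 1 or 2, with Mcpt4, a mast cell protease, at the vaseline level (log2 fold change 0.09 ± 0.098 SE, edgeR adjusted p within 1.5-fold = 0.00125). Melanocyte genes were higher in 6 of 9 (3 with all 9 libraries) and lower in 2 (1 without vaseline replicate 2). Tyrp1, an enzyme of melanin synthesis, had 69.4, 41.4 and 63.7 CPM in bergapten skin, 28.98, 64.3 and 95.9 CPM in IMQ skin and 17.5, 13.8 and 12.9 CPM in vaseline skin. Tyrp1 rose by 1.98 ± 0.22 on the log2 scale (SE, edgeR adjusted p = 0.000244). With all 9 libraries in the fit the 6 became 3. Hair shaft genes were mostly too low to test, 11 of 25 passing the filter on counts. Of 15 itch and type 2 cytokine genes 3 were higher and 5 lower, near the shares over all genes, and the 3 became 5 without bergapten replicate 1. Among the lower genes was Il31ra, the receptor for the itch cytokine IL-31, with 9.38, 6.71 and 3.57 CPM with bergapten, 13.6, 8.71 and 4.89 CPM with IMQ and 41.1, 51.1 and 35.9 CPM with vaseline. Il31ra fell by 2.71 ± 0.33 on the log2 scale (SE, edgeR adjusted p = 0.000994).

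Immediate early genes mostly could not be placed. Of 19 genes 14 passed neither test, 2 were higher, 2 lower and 1 was within 1.5-fold, with a median log2 fold change of -0.81. The list summed to 2619, 2777 and 2386 CPM in bergapten skin, 2999, 4059 and 1904 CPM in IMQ skin and 1825, 2968 and 8019 CPM in vaseline skin, with vaseline replicate 3 well above the others of its group. Without that library 6 were higher and 2 within. The 2 lower became 1 without any single bergapten library or vaseline replicate 2, with the replicate block, with library size alone, with no filter on counts and with all 9 libraries. Egr2 had 38.2, 38.5 and 29.4 CPM in the bergapten libraries, 19.97, 120.2 and 9.88 CPM in the IMQ libraries and 49.1, 65.6 and 105 CPM in the vaseline libraries (log2 fold change -1.05 ± 0.32 SE, edgeR adjusted p = 0.0476), a call lost without any single bergapten library or vaseline replicate 2 (adjusted p of up to 0.142), with the replicate block (adjusted p = 0.149), with library size alone (adjusted p = 0.057), with no filter on counts (adjusted p = 0.112) and with all 9 libraries (adjusted p = 0.359). Fosl2, a member of the Fos family, was within the margin (log2 fold change -0.03 ± 0.13 SE, edgeR adjusted p within 1.5-fold = 0.00395), a call lost with all 9 libraries in the fit (adjusted p = 0.051). Fos had 178, 194 and 107 CPM in bergapten skin, 183, 183 and 54.9 CPM in IMQ skin and 111, 279.9 and 1100 CPM in vaseline skin, and Jun had 146, 145 and 138 CPM with bergapten, 172, 275 and 126 CPM with IMQ and 129.7, 237 and 518 CPM with vaseline, neither passing either test. In both genes the vaseline libraries differed among themselves by more than the bergapten libraries did. Of 6 genes of red cells and platelets, a sign of blood in the sample, 4 passed neither test and 2 were lower, the haemoglobin gene Hba-a2 and the platelet gene Pf4. The Hba-a2 call was lost without bergapten replicate 2 or 3 or vaseline replicate 2 or 3 (adjusted p of up to 0.15), with the replicate block (adjusted p = 0.092), with library size alone (adjusted p = 0.065) and with all 9 libraries (adjusted p = 0.197). Its counts can be split with the near-identical Hba-a1.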

How the data were processed

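Total RNA (1.3 µg, RNAiso Plus, per the labels' protocols) of mouse back skin was sequenced, and the submitters' processing notes name Trimmomatic, HISAT2, HTSeq 0.6.0 and GRCm39. The authors deposited raw read counts and FPKM values per gene in one table of 56861 rows, of which 2 name no gene and hold no count and 108 symbols stand on more than 1 row. FPKM values, and the percent and score values of the deposited read quality table, were looked at and not used for results. Strandedness of the counting is not given in the sources used here, so reads of overlapping antisense genes cannot be told apart.

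Counts of the 6 libraries were tested with edgeR 4.0.16 in R 4.3.3 (robust quasi-likelihood, TMM factors from all 9 libraries, filterByExpr with a minimum count of 10 and total of 15, Benjamini-Hochberg over 17454 genes, called at an adjusted p under 0.05). Only the 6 libraries entered, since the mean within-group variance of log2 CPM was 0.0566 in bergapten, 0.1501 in IMQ and 0.0553 in vaseline skin; the fit with all 9 is an alternative. A gene was within 1.5-fold when a pair of one-sided tests on the log2 fold change and its standard error (SE) both passed after the same adjustment. Values are TMM-scaled CPM, listed in the order of replicates 1, 2 and 3. Folds against a group without counts are lower bounds against 3 counts over that group and cover counting error only. The procedure was tested on simulated data with few changed genes, in random directions, and a common spread for all genes. That does not check the scaling or the error rates for data such as these, where 51.1% of genes were called. Alternatives were RLE size factors, library size alone, TMM over the 6 libraries, DESeq2 1.42.0, no low-count filter, all 9 libraries, the replicate number as a block, Rn18s left out, each library left out in turn and a 2-fold margin.

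The comparison and the 52 gene lists were chosen with earlier results of these data known. Named genes were the 12 largest rises and falls among called genes with groups that did not overlap and at least 5 CPM in the higher group, up to 4 called and 3 within-margin members of each list with the smallest p, 18 genes always given, and the 8 within-margin genes each with the highest and lowest IMQ level relative to vaseline; not all are printed. Outside this rule, Sprr1a, Ivl, Isg15, Flg, Flg2, Scd3, Retnlg, Fos and Jun were chosen after their values were seen. Promoter sequences are from RefSeq (GRCm38.p6), matched by symbol, whereas gene coordinates are those of the deposited table (GRCm39).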

Additional observations from a re-analysis of the deposited data

How the results depend on the processing

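The number of genes called ran from 7270 with all 9 libraries in the fit to 9500 with no low-count filter, against 8914 as reported. It was 8466 with DESeq2, 8892 with RLE size factors and 9179 with library size alone. Leaving out 1 library gave 7876 to 8823 called genes and 5211 to 5377 genes within 1.5-fold, against 5954 as reported. Allowing a 2-fold margin in place of 1.5-fold gave 10858 genes within it, as the wider margin admits more genes. No gene called in the reported fit and in any of these fits had opposite signs in them. As all these fits share libraries, that outcome was nearly fixed in advance and is no independent check. Of 257 named genes that were called, 24 lost the call without at least 1 library, and 35 named genes did with all 9 libraries in the fit. Of 123 named genes within 1.5-fold, 56 lost that call in at least 1 other fit, 32 of them without 1 library and 48 with all 9 libraries. The cause was not tested.

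Same-numbered libraries did not deviate together (correlations of deviations from the group means between -0.0471 and 0.0477), so the numbers were not taken to pair samples. With the replicate block 8531 genes were called and 5717 lay within 1.5-fold, and 8 named genes lost their call.

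Of the genes under 1 CPM 87% could be placed neither apart from vaseline skin nor within 1.5-fold of it, and the part that depth had in this was not tested.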
